A study of Mus musculus with 6 samples.

Results

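Known targets of the muscle microRNAs miR-1, miR-206 and miR-133 were followed in RNA that came down with Ago2, which carries the miRNA in the RNA-induced silencing complex (RISC). The 10 genes were Hdac4, Gja1, Pax3, Pax7, Twf1, Tagln2, Cnn3 and Vegfa for miR-1/miR-206, and Srf, Ptbp2 and again Tagln2 for miR-133, out of 21853 protein-coding genes of the GENCODE M21 annotation of the mouse genome mm10 (GRCm38). The rule that lists the genes uses no measured value, although earlier results of these data were known when it was written. A peak was assigned to a gene when it overlapped any of its annotated exons by at least 1 bp.

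RISC-IP was performed in primary mouse satellite cells (MSC), the progenitors of skeletal muscle, that had been kept in differentiation medium for 30 h, transfected with a duplex RNA and lysed 16 h later. The control-IPs came from cells given a control duplex against GFP (siGFP) and the miR-222-IPs from cells given miR-222. Both duplexes were used at 10 nM per the labels, whereas the methods of the study give a higher concentration. Neither miR-1/miR-206 nor miR-133 was altered by design, so that any pairing of these miRNAs with their targets involved what the cells made themselves. Control-IP replicates 1 and 2 belong with miR-222-IP replicate 1 to experiment 1, and control-IP replicates 3 and 4 with miR-222-IP replicate 2 to experiment 2. No deletion, transgene or animal treatment is given in the labels, and nothing in them tells whether the replicates of an experiment came from separate animals.

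For each peak the lists gave coordinates and a −log10 p, with a lowest value of 20. The depth behind these values is unknown, since the lists hold no read counts. A −log10 p rises with enrichment and also with sequencing depth, so that ratios between libraries are not ratios of reads. No unprecipitated RNA was analysed here, so more Ago2 binding and more mRNA in the cell cannot be told apart. The bound RNA was amplified before the cDNA was fragmented, with no crosslinking described, so that a peak marks a covered stretch of a co-precipitated mRNA and not a contact of Ago2. The lists carry no strand.

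The lists of the 5 libraries with narrow peaks held 10579 to 37762 peaks, the most in miR-222-IP replicate 2, with median widths of 362 to 411 bp. Control-IP replicate 3 stood apart, with a median width of 32103 bp and peaks on 10 of 21 chromosomes, and is described separately. At most 34 peaks had identical coordinates in any pair of libraries. All 9 markers of skeletal myocytes had an exonic peak in at least 1 of the 5 libraries, 7 of them in all 5. Their summed −log10 p was 296 to 344 in the control-IPs and reached 454 in miR-222-IP replicate 1, against 1295 in miR-222-IP replicate 2. Myog had a peak only in miR-222-IP replicate 2. Of 10 markers of other cell types 5 had no peak (Col1a1, Dcn, Adipoq, Plin1 and Myh11), whereas Pecam1, Ptprc, Snap25, Cdh5 and Pdgfra had one, with sums of 92.9 to 222 in the control-IPs and of 199 and 228 in the miR-222-IPs. Pecam1 and Snap25 had a peak in all 5 libraries, Ptprc in 4, and Cdh5 and Pdgfra in 1 each. The part of these differences in the results below was not tested.

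miR-1 and miR-206 share one seed and accumulate in differentiating skeletal muscle together with miR-133, with which they are made from common transcripts. miR-1/miR-206 is known for restraining progenitor and repressor genes as myoblasts leave the cell cycle, and miR-133 for acting on serum response factor and on splicing regulators. An miRNA finds a target mRNA mainly through its seed, bases 2 to 8, and sites in the 3'UTR are the best described.

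The mature miRNAs below, from RefSeq annotation of GRCm38.p6, define the sites that were searched. Their seeds are in capitals. miR-206-3p stands for the seed it shares with miR-1, miR-133b-3p for that of miR-133, and miR-222-3p is the transfected miRNA.
mmu-miR-206-3p: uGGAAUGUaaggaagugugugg
mmu-miR-133b-3p: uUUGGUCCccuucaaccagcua
mmu-miR-222-3p: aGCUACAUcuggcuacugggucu

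The complementary 7-mers on the mRNA were ACATTCC for miR-1/miR-206, GGACCAA for miR-133 and ATGTAGC for miR-222, searched on the sense strand of every exon. An 8-mer is a 7-mer followed by A. The miR-1/miR-206 7-mers that lay under a peak are given first, in windows of 30 bases of mm10 read 5′ to 3′ along the mRNA with the 7-mer in capitals. They lie in the 3'UTRs of Twf1 (chr15:94578159-94578188, minus strand), Tagln2 (chr1:172506766-172506795, plus strand) and Cnn3 (chr3:121457547-121457576, plus strand).
Twf1: gaagtcaatgcACATTCCagaatatagatg
Tagln2: tgttttagcagACATTCCctgagagcccct
Cnn3: atgccttatgtACATTCCtttctccttttc

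The following 3'UTR sites lay under no peak of the 5 libraries and are shown for comparison. They are both miR-1/miR-206 8-mers of Gja1 (chr10:56389161-56389190 and chr10:56390285-56390314, plus strand), the miR-1/miR-206 7-mer of Hdac4 (chr1:91930048-91930077, minus strand), the miR-133 8-mer of Ptbp2 (chr3:119719330-119719359, minus strand) and the adjacent miR-133 7-mers of Tagln2, which share a window (chr1:172506968-172506997, plus strand).
Gja1 first: cccgctaaaaaACATTCCagtgtttaaaaa
Gja1 second: taatttgtttgACATTCCatgttaaactac
Hdac4: ctttcctcagaACATTCCttcttcactggt
Ptbp2: acaaccaggtgGGACCAAagtttatgtgcc
Tagln2 miR-133: ctGGACCAAcaaaaaccctgGGACCAAagt

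Of the 10 genes, 8 had an exonic peak in at least 1 of the 5 libraries, with 42 peaks in all that merged into 24 intervals. The same held for 46.8% of all protein-coding genes. Without miR-222-IP replicate 2 the number of target genes with a peak was 5. Twf1 and Tagln2 had a peak in all 5 libraries, as did 18.9% of genes. Pax3 and Pax7 had none. Between these extremes, Srf and Cnn3 had peaks in control-IP replicate 2 and miR-222-IP replicate 2, Gja1 in control-IP replicate 2 alone, and Hdac4, Ptbp2 and Vegfa in miR-222-IP replicate 2 alone, a pattern seen in 6.62% of genes. The plot of the highest −log10 p by gene and library shows this division.

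**Figure D1:**
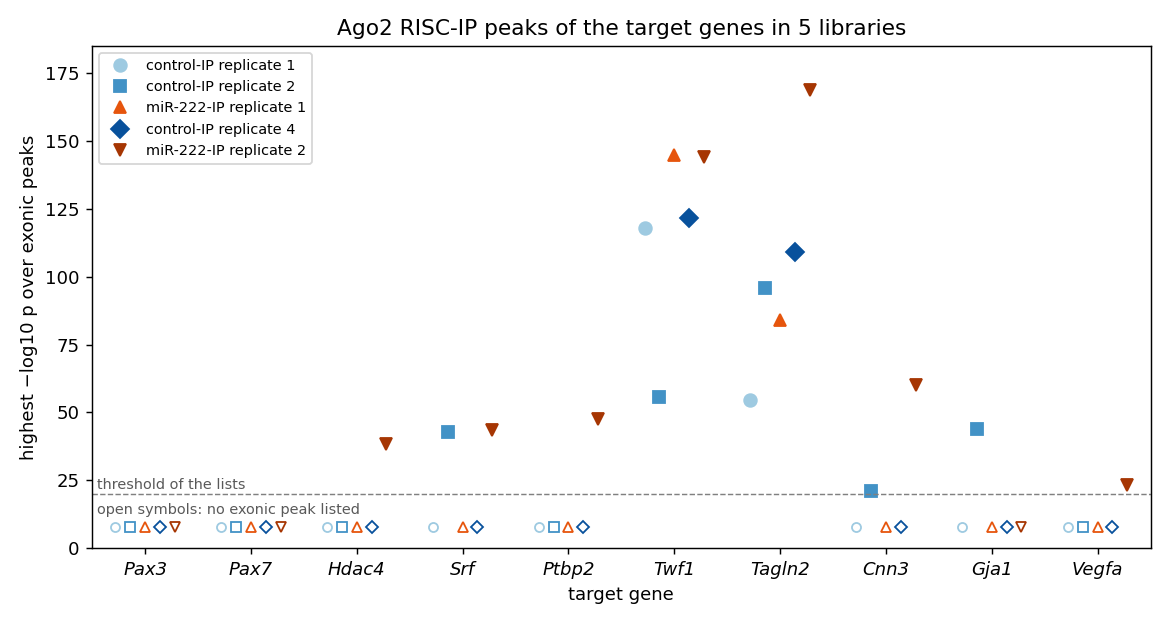
Highest −log10 p over the exonic peaks of each target gene (vertical axis) in the 5 libraries with narrow peaks, 1 symbol per library, with open symbols near the axis where no exonic peak was listed. Twf1 and Tagln2 had a value in all 5 libraries, from 54.5 to 169, the other genes had at most 2 values, up to 60.1, and Pax3 and Pax7 had none.

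The number of target genes followed the length of the lists in part. Exonic peaks were found for 2, 5 and 2 target genes in control-IP replicates 1, 2 and 4, against 2 and 7 in the first and second miR-222-IP. Over all genes an exonic peak was present for 21.3%, 34.8% and 29.8% in these control-IPs and for 33.1% and 44.6% in these miR-222-IPs. When each list was reduced to its 10579 highest peaks, miR-222-IP replicate 2 kept only Twf1 and Tagln2, as did the other libraries except control-IP replicate 2, which also kept Srf and Gja1. At this length 20.9% to 24.2% of all genes had an exonic peak in these libraries. Presence or absence of a peak was not tested.

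Pax3 and Pax7 encode the paired-box transcription factors of muscle progenitors, and miR-1/miR-206 is described as lowering both during differentiation. Neither gene had a peak in the 5 libraries, on exons or introns, although their mRNAs carry many sites. The 3'UTR of Pax3 holds 2 miR-1/miR-206 7-mers, at 832 and 1824 nt past the last coding base. That of Pax7 holds 4, of which 1 is an 8-mer. Absence from the lists shows only that no enrichment passed −log10 p of 20.

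Hdac4 encodes a class IIa histone deacetylase that represses the MEF2 factors, and is a classical miR-1 target. Its 3 exonic peaks were all in miR-222-IP replicate 2. The highest, of 38.4 (chr1:91932931-91933379), covered the last 30 coding bases and the first 419 bases of the 3'UTR. The others, of 25 and 20.9, lay over coding exons, the first of them also over an exon of the antisense transcript Gm26720, from which unstranded reads cannot be told apart. The single miR-1/miR-206 7-mer lay in the 3'UTR 3284 nt past the last coding base and 2864 bases from the nearest peak. The value of 38.4 was at percentile 23.0 among the 9748 genes with an exonic peak in that library.

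Srf, serum response factor, drives actin and other muscle genes and is the textbook target of miR-133. It had a peak of 42.6 in control-IP replicate 2 and peaks of 29.2, 27.3 and 43.4 in miR-222-IP replicate 2. The peak of control-IP replicate 2 and the first of miR-222-IP replicate 2 overlapped at the end of the coding region and the start of the 3'UTR (merged, chr17:46548938-46549599), and the other 2 covered coding exons. The GENCODE exons of Srf hold no 7-mer of miR-133. The RefSeq mRNA has a 3'UTR that runs 1490 bp further, with 1 match to bases 2 to 7 of miR-133 (chr17:46548028-46548033). No peak of the 5 libraries with narrow peaks lay over that match.

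Ptbp2, the neuronal polypyrimidine tract-binding protein, represses the inclusion of alternative exons, and miR-133 is described as lowering it in muscle. Its 5 peaks were all in miR-222-IP replicate 2, with −log10 p of 26.0, 28.6, 47.5, 46.0 and 24.9. Each overlapped a coding exon and none reached the 3'UTR. The miR-133 8-mer of Ptbp2 lay 983 nt past the last coding base of the mRNA, and 1529 bases from the nearest peak on the genome, introns included.

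Twf1, Tagln2 and Cnn3 encode actin-binding proteins: twinfilin-1, which binds actin monomers and filament ends, transgelin-2, and calponin-3. They were the 3 target genes with a miR-1/miR-206 7-mer under a peak. They were also the 3 with a −log10 p over 50. Cnn3 passed 50 only in miR-222-IP replicate 2, at percentile 44.5 of the genes with an exonic peak there.

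Twf1 (chr15:94577951-94589889, minus strand) had its highest peak in the same part of the 3'UTR in each of the 5 libraries with narrow peaks. Its −log10 p was 118, 55.8 and 122 in control-IP replicates 1, 2 and 4, against 145 and 144 in the first and second miR-222-IP. Control-IP replicate 2 was the lowest, at percentile 57.6 of the genes with an exonic peak there, against 89.2 to 94.5 in the other libraries. The merged interval (chr15:94577991-94579054) lay wholly in the 3'UTR, which is 1872 nt of the mRNA's 3025 nt. The miR-1/miR-206 8-mer, 1646 nt past the last coding base and 220 nt before the end of the mRNA, lay inside the peak in 4 libraries. In control-IP replicate 2, which had the narrowest of these peaks (755 bp against 868 to 1044 bp), the peak ended 66 bases upstream of the 7-mer and left it out. The 5′ edges of the 5 peaks lay 821 to 877 bp upstream of the 7-mer, whereas the 3′ edges of the 4 that held it lay 23 to 180 bp downstream of it. Further peaks of Twf1 were seen only in miR-222-IP replicate 2, of 50.4 over the last 80 coding bases and 654 bases of the 3'UTR, where exons of the antisense gene Irak4 overlap, and of 23.2 over a coding exon.

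Tagln2 (chr1:172500047-172507380, plus strand) is listed as a target of both miRNA families. Its highest −log10 p was 54.5, 95.8 and 109 in control-IP replicates 1, 2 and 4, against 84.0 and 169 in the first and second miR-222-IP. The highest value was thus in the library with the longest list, and the miR-222-IP of experiment 1 lay between its control-IPs. In each library this was the peak over the end of the coding region and the start of the 3'UTR, and in each it held the miR-1/miR-206 7-mer, 72 nt past the last coding base. These peaks ended 61 to 116 bp downstream of the 7-mer. Outside that peak Tagln2 was also covered at its first coding exon in 4 libraries, with 25, 41.8, 54.2 and 90.5 in control-IP replicate 1, miR-222-IP replicate 1, control-IP replicate 4 and miR-222-IP replicate 2.

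The 2 miR-133 7-mers of Tagln2, separated by 11 bases, lay in a gap between peaks. The nearest peak upstream ended at position 172506899 of chromosome 1 and the nearest downstream began at 172507013, both in miR-222-IP replicate 2. This left 70 bases before the first 7-mer and 18 bases after the second uncovered in each of the 5 libraries with narrow peaks. Only control-IP replicate 2 and miR-222-IP replicate 2 had a peak downstream of the gap, of 21.2 and 26.9. The same 3'UTR thus had its miR-1/miR-206 7-mer under a peak in 5 of 5 libraries and its miR-133 7-mers under a peak in none. The maps along the spliced mRNA show the gap.

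**Figure D2:**
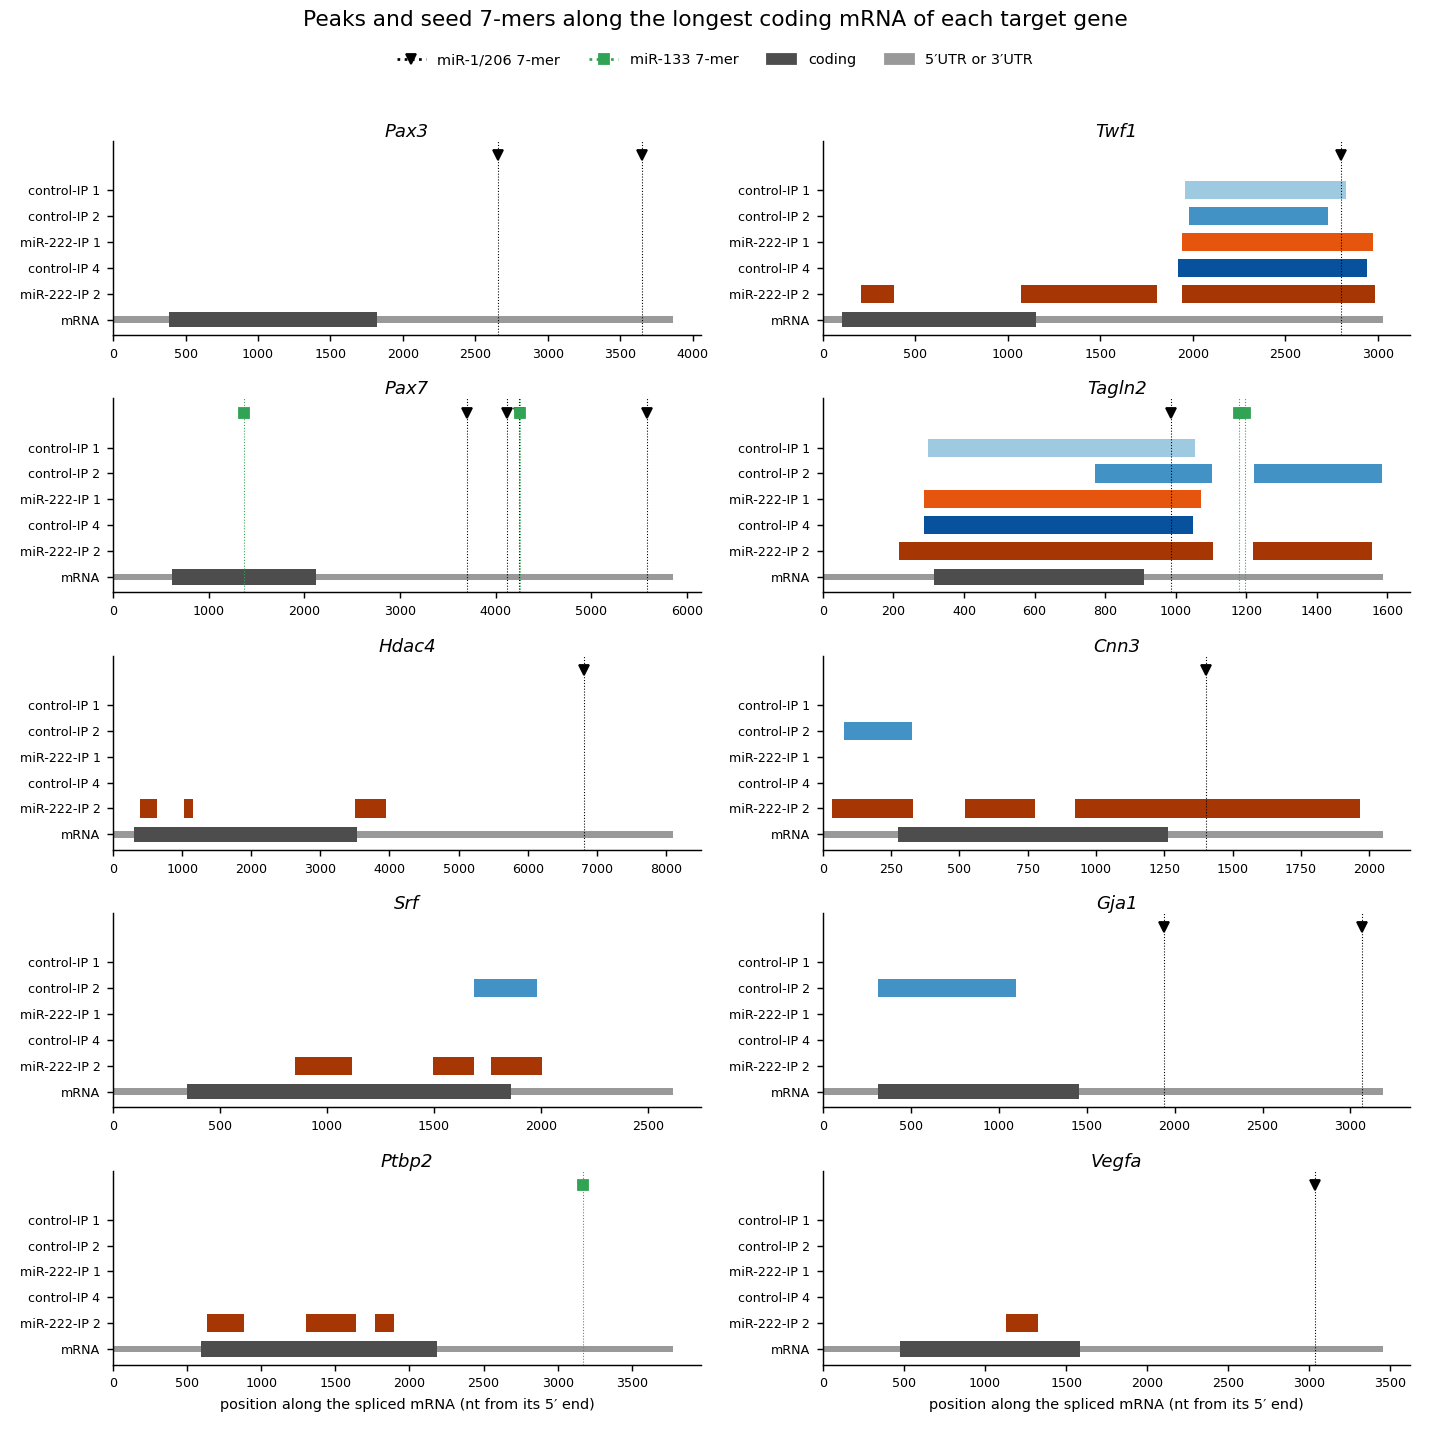
Peaks of the 5 libraries (coloured bars, 1 row per library) along the spliced longest coding mRNA of each target gene, in nucleotides from its 5′ end, with the coding region drawn thick and the UTRs thin below. Triangles mark miR-1/miR-206 7-mers and squares miR-133 7-mers, and peaks over neighbouring exons join. A miR-1/miR-206 7-mer falls under a peak in Twf1, Tagln2 and Cnn3, and no miR-133 7-mer does.

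Cnn3 (chr3:121426497-121458207, plus strand) had a peak of 21 in control-IP replicate 2 over its first exon, where the antisense transcript Gm42928 overlaps. In miR-222-IP replicate 2 it had peaks of 38.4 over the same exon, 27.3 and 21.7 over coding exons, and 60.1 over the end of the coding region and 701 bases of the 3'UTR (chr3:121457074-121458124). That last peak held the miR-1/miR-206 7-mer, 135 nt past the last coding base. It was seen in 1 library and has no replicate.

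**Figure D3:**
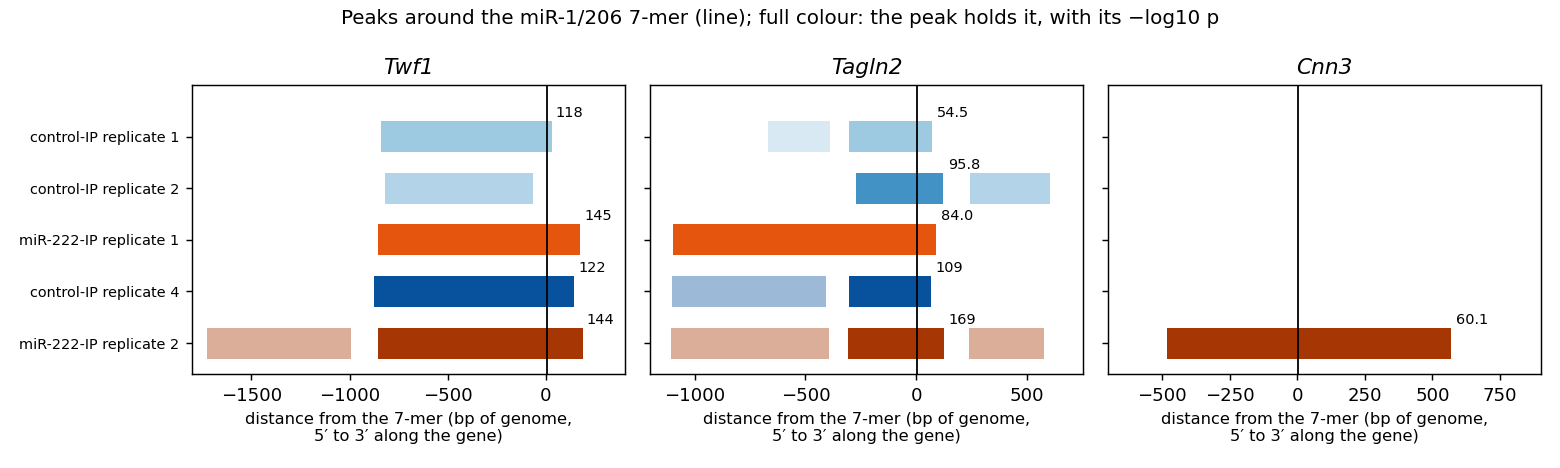
Extent of the peaks around the miR-1/miR-206 7-mer (vertical line) of Twf1, Tagln2 and Cnn3 in each library, in bp of genome, 5′ to 3′ along the gene. Bars in full colour hold the 7-mer and carry their −log10 p, and pale bars do not. The 7-mer of Twf1 lies near the 3′ edge of its peaks and outside that of control-IP replicate 2.

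Gja1 encodes connexin 43, the gap junction protein lost as myoblasts fuse. Its single peak, of 43.8 in control-IP replicate 2 (chr10:56387546-56388330), covered 784 coding bases. Both miR-1/miR-206 8-mers lay downstream in the 3'UTR, 841 and 1965 bases beyond the peak. A miR-222 8-mer lay between them (chr10:56389799-56389805) and was also under no peak, in the miR-222-IPs or elsewhere.

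Vegfa encodes a secreted angiogenic factor. Its only peak in these 5 libraries, of 23.4 in miR-222-IP replicate 2 (chr17:46025283-46025615), lay over a coding exon. The miR-1/miR-206 7-mer in its 3'UTR lay 7869 bases away on the genome. The value was at percentile 4.70 of the genes with an exonic peak in that library.

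Counted over the whole list, 14 miR-1/miR-206 7-mers were found in 8 genes, 13 of them in a 3'UTR, and 6 miR-133 7-mers in 4 genes. Genes listed as known targets are likely to hold sites, so that their number is no finding. A 7-mer of its own miRNA was held by all 8 targets of miR-1/miR-206 and by 2 of the 3 of miR-133, Ptbp2 and Tagln2. Among the 8 genes with an exonic peak, 6 held a miR-1/miR-206 7-mer in an exon, and in 3 of the 6 it lay under a peak. Among all genes with an exonic peak, 27.5% held this 7-mer, 9.97% had it under a peak, and of those that held it 36.3% had it under a peak. A miR-133 7-mer was held by 3 of the 8 genes and was under a peak in none, and 1 of the 3, Gja1, held it in a non-coding transcript and is not listed as a miR-133 target. Among all genes 27.1% held it, 10.1% had it under a peak, and of those that held it 37.1% had it under a peak. None of the 3 miR-222 7-mers in genes with a peak lay under one. Shorter matches, to bases 2 to 7 of miR-222, did lie under peaks of miR-222-IP replicate 2, the longest list, in Cnn3, Ptbp2 and Hdac4. That of Ptbp2 lay in an exon of a non-coding transcript. The other such matches of Ptbp2 and Hdac4 lay under no peak of the 5 libraries. The share of all genes with such a match under a peak is not given, so that no enrichment can be read from these matches. In Cnn3 and Ptbp2 the match under a peak was followed by A. That of Cnn3 (chr3:121457610-121457615) lay in the same peak as its miR-1/miR-206 7-mer.

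Peaks covered 17.5% of the exonic bases of the 8 genes, against 27.3% over all genes with an exonic peak. The miR-1/miR-206 7-mer occurred 3 times in the 8.84 kb of exon under peaks and 4 times in the other 41.8 kb of the 8 genes, or 0.339 and 0.0958 per kb. Over all genes with a peak it occurred 0.0729 times per kb under peaks and 0.0618 per kb outside. Counts of 3 and 4 sites allow no statement on a difference between the list and other genes.

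By transcript part, 7 of the 24 intervals of the target genes (29.2%) reached a 3'UTR, against 28.5% of the 37732 intervals of all genes. A further 13 (54.2%) overlapped coding bases and no UTR of the longest coding transcript, against 61.1%. Such intervals could also run beyond the coding exon, as in Ptbp2 with 76 coding bases in an interval of 299 bp. The differences were small beside these numbers of intervals, and were not tested. The gene with the most intervals was Ptbp2, with 5, where the median over all genes with an exonic peak was 2 and the upper quartile 5.

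Whether miR-222 altered the peaks of the muscle miRNA targets could be examined only for Twf1 and Tagln2, which had a value in all 5 libraries. Values were scaled by the median of ratios over the 4134 genes with a peak in all 5 libraries, and comparisons of miR-222-IP with control-IP were made within each experiment.

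Scaled values of Twf1 were 177 and 54.5 in the control-IPs of experiment 1 and 140 in its miR-222-IP, and 129 in the control-IP and 91.1 in the miR-222-IP of experiment 2. The miR-222-IP thus lay between its control-IPs in experiment 1 and below its control-IP in experiment 2. The log2 ratio was 0.27 in experiment 1 and −0.50 in experiment 2, with a mean of −0.11. The exact permutation test of the labels within experiments, two-sided, gave p = 1.0. With 6 arrangements the smallest p this design allows is 0.167. The log2 ratio between the control-IPs of experiment 1 was 1.70, larger than either of these differences. The sign of the mean rested on single libraries, since it was 0.43, 0.27 and 0.29 without control-IP replicate 1, control-IP replicate 4 and miR-222-IP replicate 2.

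Scaled values of Tagln2 were 81.7 and 93.7 in the control-IPs of experiment 1 and 81.3 in its miR-222-IP, and 116 in the control-IP and 107 in the miR-222-IP of experiment 2. Each miR-222-IP was below every control-IP of its experiment, in experiment 1 by less than the control-IPs differed from each other. This order was seen in 17.2% of the 4134 genes, and the opposite order in 15.7%. The log2 ratio was −0.11 in experiment 1 and −0.12 in experiment 2, with a mean of −0.12 (exact permutation test, two-sided, p = 0.333). From the sum of −log10 p over its peaks in place of the highest value, the mean was −0.43.

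**Figure D4:**
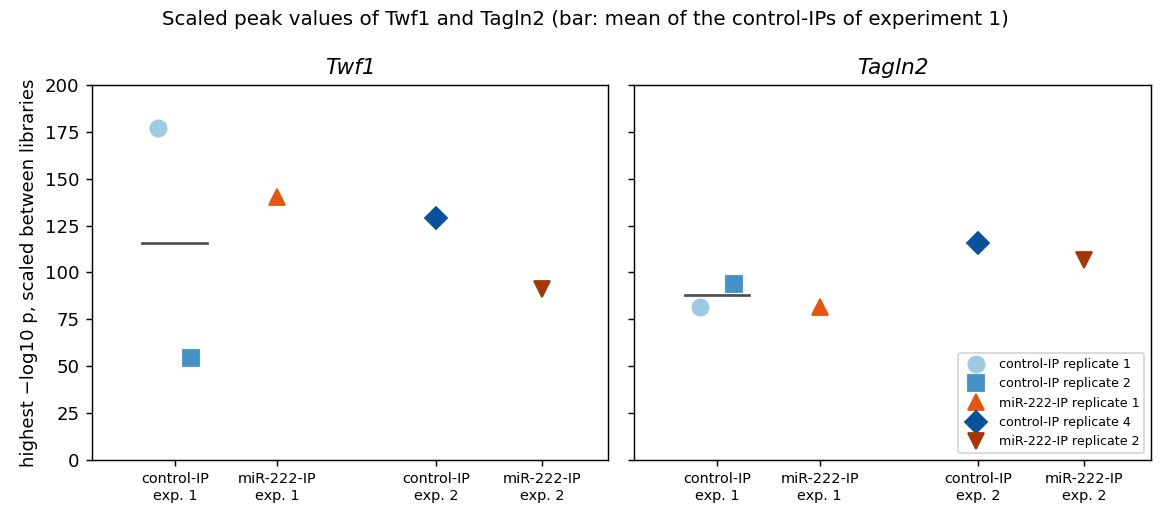
Highest −log10 p of Twf1 and Tagln2 after scaling between libraries (vertical axis, linear from 0), 1 point per library, by condition and experiment, with a bar at the mean of the control-IPs of experiment 1. The control-IPs of Twf1 in experiment 1, at 177 and 54.5, are further apart than any control-IP and miR-222-IP of experiment 2.

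The mean log2 ratios of Twf1 and Tagln2, −0.11 and −0.12, lay at percentiles 39.0 and 38.9 of all 4134 genes, whose median was −0.02 and SD 0.36. No difference between miR-222-IP and control-IP was detectable for them with 2 miR-222-IPs.

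The wide peaks of control-IP replicate 3 overlapped exons of 5 of the target genes, beside 25.1% of all protein-coding genes. This share counts genes of all chromosomes, also those without a peak in this list. The −log10 p of this library was 67.2 for Hdac4, 35.6 for Srf, 162 for Twf1, 175 for Tagln2 and 66.6 for Vegfa. The peaks ran over 14591 to 125510 bp, and those of Hdac4, Srf, Twf1 and Tagln2 also covered exons of neighbouring or antisense genes, so that they cannot be assigned to 1 gene or site. No peak of this library overlapped exons of Pax3 or Gja1. Its list holds no peaks on chromosomes 3 and 4 and so gives no information on Ptbp2, Cnn3 and Pax7.

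A wider list of 25 other genes often cited as miR-1/miR-206 targets and 18 as miR-133 targets was described in the same way. An exonic peak was present for 20 of the 25, in all 5 libraries for 13, beside 46.8% and 18.9% of all genes. Of the 15 with both a peak and a 7-mer, 12 had the 7-mer under a peak, beside the 36.3% given above for all genes. Genes of this list had peaks in all 5 libraries more often than all genes, and were chosen with earlier results known. Shares of genes with a 7-mer under a peak, here and for miR-133 below, are thus not like for like and were not tested. The highest values over a miR-1/miR-206 7-mer were 240 for Tmsb4x, which encodes the actin-sequestering thymosin beta 4, 166 for Cdc42, a small GTPase, and 162 for Tkt, a transketolase, all 3 in control-IPs. Of the 18 genes cited for miR-133, 13 had an exonic peak, in all 5 libraries for 8, beside the same shares, and 5 of the 8 with both a peak and a 7-mer had it under a peak, beside 37.1%. The highest values there were 91.6 for Ppp2ca, a catalytic subunit of protein phosphatase 2A, in miR-222-IP replicate 2, 70.0 for Tgfbr1, a TGF-beta receptor, in control-IP replicate 1, and 57.8 for Igf1r, the IGF1 receptor, in miR-222-IP replicate 2. A miR-133 7-mer was thus covered in other genes of these libraries though in none of the target genes described here. Of the miR-133 targets described here only Ptbp2 and Tagln2 had both a peak and a 7-mer, too few for a statement on a difference.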

How the data were processed

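Ago2-bound RNA of MSC myocytes was amplified, fragmented and sequenced in 6 libraries, 4 control-IPs and 2 miR-222-IPs. Reads had been aligned by the authors with SOAPSplice (mm10). Peaks were called per library by macs2, and the deposited value is the −log10 p of every peak over 20. Neither the macs2 version nor a control track is given in the sources used here. The count model of the study, with condition and experiment, needs read counts and was not run. Groups and experiments were taken from the labels. For miR-222-IP replicate 2 the title reads miR22, whereas the condition field gives miR222, which was followed.

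Peaks were matched to exons and transcript parts of GENCODE M21 in Python 3.11.15 (numpy 2.4.6, pandas 2.3.3), with sequences read by pysam 0.24.0. Coding regions are as annotated, without the stop codon. Overlapping peaks of the 5 narrow libraries were merged. The level of a gene was the highest −log10 p of its exonic peaks. Library effects were removed by the median of ratios, and the mean log2 ratio over both experiments was tested by exact permutation of labels within experiments. All 7 checks on simulated data passed. Peaks were named for all 10 target genes, and for the 3 genes per miRNA of the wider list with the highest −log10 p over a 7-mer. Genes, lists and alternatives were chosen with earlier results of these data known. Alternatives covered the threshold, annotation, seed length, scaling and the omission of each library.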

Additional observations from a re-analysis of the deposited data

Results flagged for a closer look

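The median peak width of control-IP replicate 3, 32103 bp, stood apart from the other 3 control-IPs, which had 362 to 411 bp. The rule behind this flag marks about 5% of groups by chance, and gives no probability for this gap. Of the 3619 peaks of this list, 2771 were wider than 5000 bp, against 0 in each other library. The −log10 p of control-IP replicate 3 was above that of the other 3 control-IPs for Tagln2, at 175 against 54.5 to 109. The same held for Twf1, at 162 against 55.8 to 122. Its wide peaks cannot be assigned to 1 gene, so that these values are not like for like.

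The log2 ratio of Twf1 had opposite signs in the experiments, 0.27 in experiment 1 and −0.50 in experiment 2. With 1 miR-222-IP in each experiment the difference was not tested.

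Outside the exons of the target genes, 1 peak was found in the 5 narrow libraries, in an intron of Hdac4 in miR-222-IP replicate 2 (chr1:92096992-92097232), with a −log10 p of 24.7. No control-IP had a peak there.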

How the results depend on the processing

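The number of target genes with an exonic peak, 8, was 3 at −log10 p over 50, 4 where a peak in at least 2 libraries was required and 4 with the same number of peaks in each list, an alternative chosen after seeing the data. With each library left out in turn it was 5 to 8, the lowest without miR-222-IP replicate 2. It stayed at 8 with control-IP replicate 3 added, with the longest coding transcript, with RefSeq exons (chosen after seeing the data) and with at least 50% of the peak in exons. No share over all genes is given here for these alternatives, so that the counts describe the target genes alone. The number of genes with a miR-1/miR-206 site under a peak, 3, was 5 with the wide peaks of control-IP replicate 3 and 1 with the 8-mer, and 2 to 3 with each library left out. For miR-133 the number, 0, was 1 (Tagln2) with control-IP replicate 3 added and 1 (Tagln2) for sites within 100 bp of a peak, and stayed at 0 with each library left out. With the 6-mer it was 3 genes for miR-1/miR-206 and 0 for miR-133.

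The median log2 ratio of Twf1 and Tagln2, −0.12, was 0.44 with no scaling and −0.53 with scaling to the total in exonic peaks, and ranged from −0.32 to 0.13 with each library left out. With no scaling Twf1 was at 0.49 and Tagln2 at 0.39, whereas the median of all genes moved from −0.02 to 0.50, and relative to that median both were below 0, at −0.01 and −0.10. With each library left out Twf1 ranged from −0.51 to 0.43 and Tagln2 from −0.16 to −0.07. With the sum of −log10 p over a gene's peaks in place of the highest, the median was −0.26, with −0.08 for Twf1 and −0.43 for Tagln2. Without the experiment as a replicate block the median was −0.05, with −0.06 for Twf1 and −0.05 for Tagln2. No numbers in the labels pair single samples across groups. Why the values moved was not tested.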
